A study of Mus musculus with 2 samples.

Results

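The transcripts of 45 translation initiation and elongation factors were compared between haematopoietic stem and progenitor cells (HSPCs) of Trmt6 WT and Trmt6 cKO mice. The genes were taken from a list of symbols (subunits of eIF1, eIF2, eIF2B, eIF3, eIF4, eIF5, eIF6 and the elongation factors, with the kinase Eef2k), and all 45 were found among the 27998 genes of both libraries. The rule that names them uses no measured value, though the list was chosen with earlier results of these data known. The cells were LSK cells (Lin- Sca-1+ c-Kit+) sorted from bone marrow of 3-month-old mice (kept on C57BL/6, in the study's methods) and profiled singly, with 1 library per genotype. The protein made from Trmt6 is part of the enzyme that writes m1A on tRNA. The WT library is labelled Trmt6fl/fl. The cKO library is labelled Trmt6fl/fl, MX1-cre, a recombinase switched on by interferon and therefore active in many cell types beside blood cells. The study's text instead gives Mx1-Cre and pIpC to both genotypes, and how many mice were pooled is not stated. Genotype, library and depth therefore cannot be told apart, and no difference below has a replicate check.

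Translation begins when eIF2, loaded with GTP and initiator tRNA, joins eIF1, eIF1A, eIF3 and eIF5 on the small ribosomal subunit. eIF4F (the cap-binding eIF4E, the scaffold eIF4G and the helicase eIF4A) brings the mRNA, and eIF5B joins the large subunit. eIF2B then recharges eIF2 with GTP, the step that phosphorylation of the eIF2 alpha subunit blocks under stress. During elongation eEF1A delivers aminoacyl-tRNA and is recharged by the eEF1B subunits, while eEF2 moves the ribosome along and is switched off by the kinase encoded by Eef2k. Haematopoietic stem cells are known for a low rate of protein synthesis, and mTORC1 is a main regulator of the cap-binding step and of Eef2k activity.

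The data are counts of unique molecular identifiers (UMIs), each standing for 1 captured mRNA molecule. After filters on genes and mitochondrial share and removal of likely doublets, 8152 WT cells with 41459543 UMIs and 8484 cKO cells with 86937511 UMIs were kept. The median kept cell held 4112.5 UMIs in WT and 10002.5 in cKO, and 24 barcodes occurred in both libraries. Levels are UMIs summed over cells and scaled to a total of 1000000 in each library or gate (CPM), and each log2 ratio (cKO over WT) is given with a 95% interval that covers counting error only. With 1 library per genotype no test across samples exists, so "higher" and "lower" below mean a log2 ratio past a limit of 0.32 in either direction and describe these 2 libraries. The targeted gene Trmt6 stood at 63.5 CPM in WT against 50.2 CPM in cKO (log2 ratio -0.34, -0.41 to -0.27). Counted from the 3-prime end, it does not check the deleted part. The markers of other cell types also differed between the libraries: the summed level of 6 granulocyte-monocyte progenitor (GMP) genes was 6493 CPM in WT against 741 CPM in cKO, and that of 6 neutrophil genes 1860 and 6.65 CPM. Ratios with the cKO cells weighted to the WT mix of gates, and ratios within gates, are given further on.

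Most factor transcripts took a larger share of the cKO library. All 45 passed 5 CPM in a library, as did 9147 genes in all, and together they made up 14951 CPM in WT against 19759 CPM in cKO (log2 ratio 0.40). Without Eef1a1, whose product delivers aminoacyl-tRNA, the sums were 12694 and 16771 CPM and the ratio was again 0.40. The median of the 45 log2 ratios was 0.20, against -0.07 for all 9147 genes. By the limit of 0.32, 19 factors were higher in cKO, 1 was lower and 25 lay within the limits. Among all genes the same limits held 16.7% higher and 28.4% lower. Restricted to cells of 4000 to 8000 UMIs in both libraries, a shared depth band described in full below, 10 factors were higher and 0 lower, beside 22% and 20.7% of all genes. Of the 38 factors at 50 CPM or more, 17 were higher and 0 lower, where all genes at that level gave 19.4% and 22.2%. Past a fold of 1.5, 5 factors were higher and 0 lower, beside 6.73% and 13.8% of all genes. The counting interval lay above 0 for 35 factors and below 0 for 7, beside 33.1% and 45.7% of all genes, so these intervals excluded 0 for most genes. Scaling by median-of-ratios size factors in place of the total moved the median of all genes to 0.03 and that of the factors to 0.30. It gave 22 higher and 0 lower factors, beside 23.2% and 21.8% of all genes, and turned Eif2a, Eif3b, Eif3k, Eif3l and Eif4g1 from below to above 0.

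**Figure D1:**
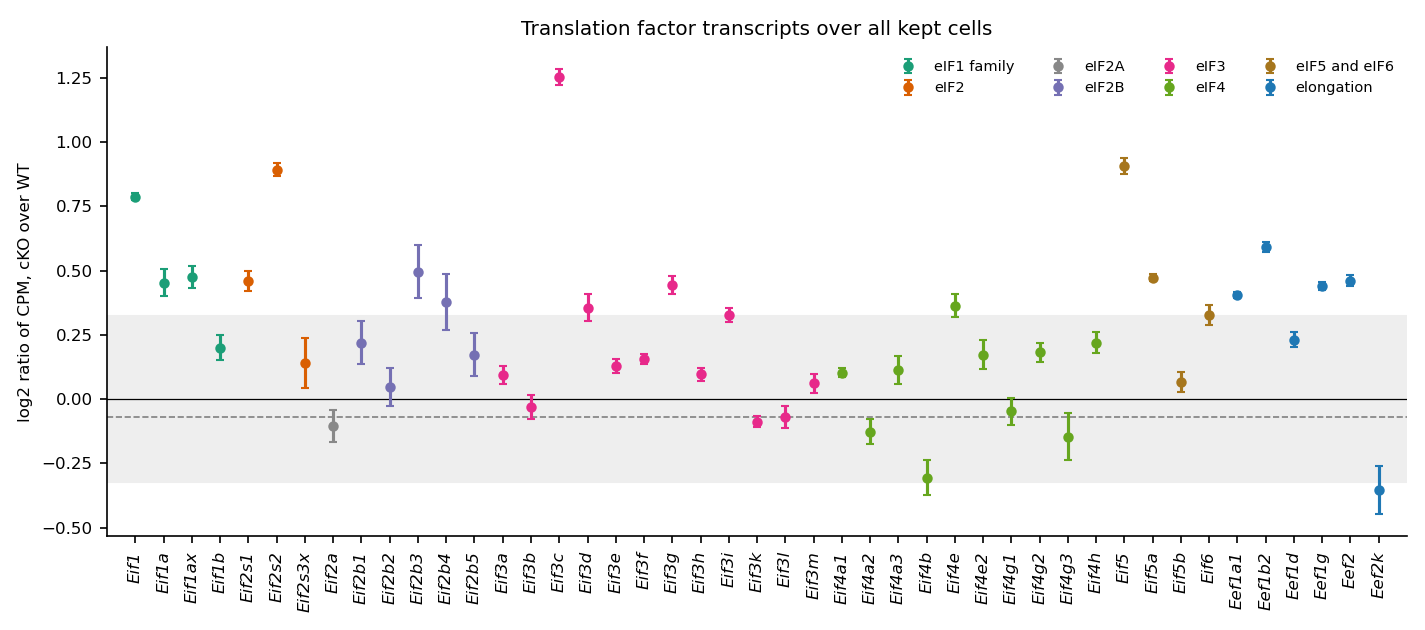
Log2 ratio of CPM, cKO over WT, of each of the 45 factors over all kept cells, grouped by complex. Points are ratios with 95% counting intervals, the grey band marks the limits of 0.32 in either direction and the dashed line the median of all genes (-0.07). Eif3c stands highest at 1.254, and Eef2k at -0.36 is the only point below the band.

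**Figure D2:**
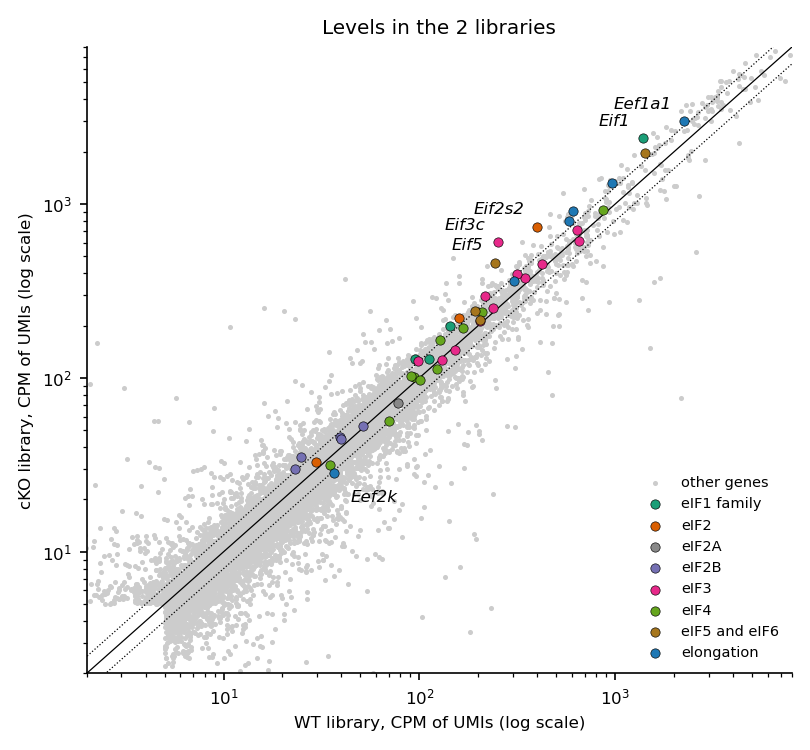
CPM of each gene in the WT library (horizontal, log scale) and the cKO library (vertical, log scale), with the 45 factors in colour and other genes at 5 CPM or more in grey, genes outside the axes not drawn. The solid line is equality and the dotted lines are the limits of 0.32 on the log2 scale. The factors above the upper line include Eif3c, Eif5, Eif2s2 and Eif1, while Eef2k lies below the lower one.

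The eIF1 family keeps the scanning ribosome open until a start codon is found. Eif1 (chromosome 11, plus strand, 100319885 to 100322096 in GRCm38) gave 1383 CPM in WT against 2387 CPM in cKO (log2 ratio 0.79, 0.77 to 0.80). Eif1a and Eif1ax, which encode forms of eIF1A, followed at 94.5 and 129 CPM (0.45) and at 143 and 199 CPM (0.48). The fourth member, Eif1b, went from 112 to 129 CPM, a ratio of 0.20 that stayed inside the limits. All 4 ratios were therefore above 0, and 3 of 4 were past the limit, beside 16.7% of all genes. Among cells of the shared depth band Eif1 stood at 0.51 and Eif1a at 0.42, but Eif1ax at 0.08 (-0.00 to 0.17).

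The ratios of the eIF2 subunits were unequal. Eif2s2, the beta subunit that contacts eIF5 and eIF2B (minus strand of chromosome 2, 154871410 to 154892935), went from 397 to 738 CPM (log2 ratio 0.89, 0.87 to 0.92). Eif2s1, the alpha subunit that carries the stress-regulated serine, was at 160 CPM in WT against 220 CPM in cKO (0.46, 0.42 to 0.50). The gamma subunit, which holds GTP and initiator tRNA, is encoded on both sex chromosomes in mice. Its X-linked gene Eif2s3x was at 29.8 and 32.8 CPM (0.14, 0.04 to 0.24), and its Y-linked copy Eif2s3y, no member of the list, at 39.1 and 36.0 CPM. Summed, the gamma subunit transcripts stood at 68.9 and 68.8 CPM (log2 ratio -0.00, -0.07 to 0.06). Over all kept cells the alpha and beta transcripts were therefore higher in cKO while the gamma total was level. Xist was counted with 8 UMIs in WT and 16 in cKO. In the shared depth band Eif2s2 kept a ratio of 0.59 (0.54 to 0.63), whereas Eif2s1 was at 0.17 (0.09 to 0.25). Eif2s3x was level with Eif2s1 there, at 0.17 (-0.02 to 0.36). Eif2a encodes a separate protein that is not a subunit of eIF2, and was at 77.6 and 72.2 CPM (-0.10, with the sign turned by size factors and in the shared depth band).

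The 5 genes of eIF2B, the exchange factor of eIF2, all had ratios above 0, with a median of 0.22 and 2 of 5 past the limit. Of all genes 16.7% were higher past it, with a median of -0.07. Eif2b3 (gamma subunit) was at 24.9 CPM in WT against 35.1 CPM in cKO (log2 ratio 0.50, 0.39 to 0.60). Eif2b4 (delta subunit, part of the regulatory core) was at 23.1 and 30.0 CPM (0.38). The catalytic epsilon subunit Eif2b5 was at 39.7 and 44.8 CPM, a ratio of 0.17. Eif2b2 was nearest to level, at 51.5 and 53.3 CPM (0.05, -0.03 to 0.12). In the shared depth band the ratios of Eif2b1, Eif2b2, Eif2b3 and Eif2b5 had intervals that included 0.

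Among the 12 subunits of eIF3, the scaffold that binds the small subunit, 1 gene stood apart. Eif3c, a subunit of the octamer core (minus strand of chromosome 7, 126546455 to 126566411), was counted with 10460 UMIs in WT and 52306 in cKO, that is 252 and 602 CPM (log2 ratio 1.254, 1.22 to 1.28), at the 98.0th percentile of all genes. The next eIF3 subunits were Eif3g at 217 and 296 CPM (0.45), Eif3d at 98.4 and 126 CPM (0.36), whose product can bind the cap of some mRNAs, and Eif3i at 317 and 397 CPM (0.33). The largest subunit, Eif3a, was at 238 and 254 CPM (0.09), and Eif3b, which with Eif3g and Eif3i forms a module near the mRNA entry, at 130 and 127 CPM (-0.03, -0.08 to 0.02, and 0.07 by size factors). Lowest was Eif3k, a peripheral subunit, at 653 and 614 CPM (-0.09), with Eif3l, its partner, at 153 and 146 CPM (-0.07). These last signs depended on scaling: under each of the other scalings by size factors, TMM or a total without mitochondrial and ribosomal protein genes, both ratios were between 0.01 and 0.03. The median of the complex was 0.11, and transcripts of subunits that sit in 1 complex thus ranged from -0.09 to 1.254. Eif3c was again the highest of the 45 in the shared depth band, with 247 and 411 CPM (0.73, 0.68 to 0.79). Eif3i was there at 0.34, whereas Eif3g at 0.11 and Eif3d at 0.25 were within the limits and Eif3e (0.43) and Eif3f (0.39) were past them.

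The 10 genes of the eIF4 group had a median log2 ratio of 0.11. Past the limit was 1 of 10, near the 16.7% of all genes: Eif4e, the cap-binding protein released by mTORC1 activity, at 128 CPM in WT against 164 CPM in cKO (0.36, 0.32 to 0.41). Within the band of 4000 to 8000 UMIs Eif4e was at 127 and 133 CPM, a ratio of 0.07 (-0.02 to 0.16). The helicase Eif4a1 was at 866 and 930 CPM (0.10) and its paralogue Eif4a2 at 123 and 113 CPM (-0.13). The scaffold Eif4g1 was level at 100 and 96.9 CPM (-0.05, -0.10 to 0.01, and 0.06 by size factors), while Eif4g2, which acts in cap-independent initiation, was at 210 and 238 CPM (0.18). Eif4b, a cofactor of the helicase, was the lowest at 70.2 and 56.8 CPM (-0.31, -0.37 to -0.24), short of the limit. Thus over all kept cells the cap-binding subunit, the scaffold and the helicase of eIF4F had unequal ratios. In the shared depth band Eif4a1 was at -0.03 (-0.07 to 0.01) and Eif4g1 at 0.17 (0.07 to 0.28). Like Eif4e they were within the limits there, with Eif4g1 the highest of these genes.

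Among eIF5, eIF5A, eIF5B and eIF6, 3 of 4 genes were higher, beside 16.7% of all genes. Eif5, which makes eIF2 hydrolyse GTP at the start codon (plus strand of chromosome 12, 111538016 to 111546752), was at 244 CPM in WT against 459 CPM in cKO (log2 ratio 0.91, 0.88 to 0.94). Eif5a, the hypusine-bearing protein that relieves stalled elongation, was at 1422 and 1974 CPM (0.47). Eif6, which keeps free large subunits apart from small ones, was just past the limit at 193 and 242 CPM (0.33), and Eif5b was at 205 and 214 CPM (0.07). In cells of the shared depth band these values were 0.31 for Eif5, 0.25 for Eif5a, 0.01 for Eif6 and 0.04 for Eif5b, all within the limits. Of all genes, 22% were higher there.

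Of the 6 elongation genes, 4 were higher and Eef2k was lower, where 16.7% of all genes were higher and 28.4% lower. Eef1a1 was at 2258 CPM in WT against 2988 CPM in cKO (log2 ratio 0.40, 0.39 to 0.42). The exchange subunits Eef1b2, at 606 and 915 CPM (0.59), and Eef1g, at 968 and 1315 CPM (0.44), were higher too, while Eef1d at 306 and 359 CPM (0.23) stayed within the limits. Eef2, the translocase, was at 584 and 804 CPM (0.46, 0.44 to 0.48). Its kinase Eef2k (plus strand of chromosome 7, 120842831 to 120907450) was at 36.6 and 28.6 CPM, a ratio of -0.36 (-0.45 to -0.26). The transcripts of the translocase and of its inhibitory kinase were therefore on opposite sides of 0, under each of the 11 settings tried. Among the cells of the shared depth band, Eef2 and Eef1a1 were at 0.62 and 0.43, while Eef1g was at 0.28 and Eef1d at 0.06. Eef2k was then at -0.22 (-0.40 to -0.04).

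Some members cannot be counted without doubt. At 11 loci (Eef1b2, Eef2k, Eif2a, Eif2b4, Eif2s2, Eif3d, Eif3m, Eif4a2, Eif4g3, Eif5b and Eif6) a counted gene lies on the opposite strand, and Naprt overlaps Eef1d on the same strand. The strand setting used in counting is not given in the sources used here. Several members, such as Eef1a1 and Eif5a, have near-identical processed pseudogenes, and reads shared with these could be lost.

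The promoter windows were searched for the E-box, the sequence CACGTG, which is bound by MYC and by the USF and TFEB families. RefSeq windows (GRCm38.p6, 250 bases before to 50 after each start) were available for 36 members, with 47 promoters in all. CACGTG, which reads the same on both strands, was found in 13 of these 47 promoters (27.7%), belonging to 11 members, and in 7.15% of all 32851 promoters. It was found in 3 of the 14 members with a window that were higher in cKO, and also in a promoter of Eef2k. The element TGATGNAA of the C/EBP-ATF response, searched on both strands, was in 2 of 47 promoters (Eif2s3x and Eef2k) and in 3.97% of all, with 0 of the 14 higher members. The windows of Eef2, Eif5a and Eef2k are given below, 5-prime to 3-prime on the strand of the gene, with the E-box in capitals, because they pair the translocase with its kinase and add the elongation factor eIF5A. They lie at chr10:81176572-81176609 (plus), chr11:69921439-69921476 (minus) and chr7:120842784-120842821 (plus), and their E-boxes start 43, 74 and 31 bases before the RefSeq start that the window belongs to. By the GENCODE gene bounds, those of Eef2 and Eef2k lie before the gene, while that of Eif5a begins 482 bases inside it, in no annotated exon of the gene.
Eef2: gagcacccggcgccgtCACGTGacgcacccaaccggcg
Eif5a: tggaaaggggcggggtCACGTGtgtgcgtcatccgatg
Eef2k: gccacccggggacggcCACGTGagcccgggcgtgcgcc
The same hexamer thus stood near starts of genes whose ratios were 0.46, 0.47 and -0.36. Eif4e was the third higher member with a match. A match in these letters is a description of the window and no binding was measured.

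Other genes of the translation pathway were compared from a list of 43, of which 39 passed 5 CPM. Their median log2 ratio was 0.13, with 11 higher and 8 lower, against 16.7% and 28.4% of all genes by the same limits. Of the 8 termination and recycling genes, 4 were higher and 0 lower. Etf1, the release factor that reads stop codons, was at 50.9 CPM in WT against 75.4 CPM in cKO (0.57), its partner Gspt1 at 117 and 165 CPM (0.50), and Abce1, which splits ribosomes, at 47.6 and 62.0 CPM (0.38). Among 11 partners of the cap, the poly(A) tail and the helicase, 6 were lower and 2 higher, with a median of -0.37, where 28.4% and 16.7% of all genes were. Pdcd4, which binds eIF4A and blocks its helicase, was at 452 CPM in WT against 109 CPM in cKO (log2 ratio -2.06, -2.09 to -2.02). The poly(A)-binding protein gene Pabpc1 was at 1433 and 1084 CPM (-0.40), and its regulators Paip2 and Paip1 were at 412 and 281 CPM (-0.55) and at 92.1 and 70.1 CPM (-0.39). Ddx3x, an X-linked helicase, was at 53.4 and 38.2 CPM (-0.48), and Eif4e3, a cap-binding paralogue, at 57.4 and 44.3 CPM (-0.37). Dhx29 (0.54) and Pabpc4 (0.33) were the higher ones.

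The enzymes that modify eIF5A and eEF2 had 3 higher and 0 lower among 8 that passed (all genes 16.7% and 28.4%). Dohh and Dhps, which make hypusine on eIF5A, had ratios of 0.21 and 0.03, and the diphthamide genes of eEF2 that were past the limit were Dph6 (0.57), Dph3 (0.41) and Dph2 (0.35). Of the phosphatase subunits that reverse the phosphorylation of eIF2 alpha, Ppp1r15a was at 108 and 58.3 CPM (-0.89) and Ppp1r15b at 12.0 and 10.9 CPM (-0.14). Eef1e1, a partner of the tRNA synthetase complex, was at 69.5 and 103 CPM (0.56). Eef1a2, the muscle and brain form of eEF1A, had 0 UMIs in both libraries.

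Whether the difference followed the changed mix of cells was examined by gating single cells on markers. Cells were thinned to 2000 UMIs (205 WT and 105 cKO cells held fewer and were left out), and a cell was assigned to a list when at least 2 of its markers had a UMI and more than for any other of 10 lists. The stem cell (HSC) gate held 247 WT and 904 cKO cells, the lymphoid-primed (LMPP) gate 367 and 163, the GMP gate 4466 and 731, and the megakaryocyte (Mk) gate 208 and 51. The remaining cells with enough UMIs were assigned to other lists or met no gate. The latter, 2369 WT and 6074 cKO cells, had fewer than 2 markers of every list or tied between lists. They were not free of markers: GMP markers summed to 1339 CPM in WT and 473 CPM in cKO, and HSC markers to 275 and 234 CPM. Ratios were computed on all UMIs of the gated cells. The gates do not hold the same cells in both libraries: the summed HSC markers in the HSC gate were at 1157 CPM in WT against 707 CPM in cKO, the GMP markers in the GMP gate at 9559 and 2921 CPM, and the Mk markers in the Mk gate at 3874 and 1134 CPM. GMP markers were also counted in the other gates, with 1156 CPM (WT) against 499.7 CPM (cKO) in the HSC gate, 930 and 442 in the LMPP gate and 481 and 252 in the Mk gate. In the HSC gate of WT they were thus as high as the HSC markers. B cell markers stood at 77.7 and 338 CPM in the LMPP gate. Neutrophil genes stood at 120 and 2.05 CPM in the HSC gate, at 97.9 and 0.66 in the LMPP gate, at 272 and 30.9 in the GMP gate and at 93.5 and 0 in the Mk gate. The part of these differences in the ratios was not tested. In the HSC gate the median cell held 2927 UMIs in WT and 7614.5 in cKO, and 62.3% and 40.0% of cells were called G1. The LMPP gate had 3839 and 8687 UMIs with 41.1% and 26.4% in G1. The GMP gate had 4674.5 and 12795 UMIs with 29.2% and 13.0% in G1. The Mk gate had 4544 and 11292 UMIs with 20.2% and 9.80% in G1. Over all gates, 40.6% of WT and 53.2% of cKO cells were called S phase.

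With all cells of a gate, the median factor was above the median gene in each of the 4 gates. The factor median was 0.16 in the HSC, 0.37 in the LMPP, 0.25 in the GMP and 0.19 in the Mk gate, against -0.15, -0.10, -0.09 and -0.07 for all genes. In the HSC gate 16 of 45 factors were higher and 3 lower, where all genes gave 19.7% and 39.4%. In the LMPP gate 26 were higher and 3 lower (all genes 24% and 36.4%), in the GMP gate 18 and 0 (16.7% and 30.7%), and in the Mk gate 15 and 2 (27.7% and 35.3%). In the Mk gate, which held 51 cKO cells, 14 factors had an interval above 0 and 1 below (8.1% and 10.2% of all genes). The counts were 20 and 3 in the HSC gate (9.42% and 18.3%), 28 and 1 in the LMPP gate (13.1% and 17.2%) and 33 and 3 in the GMP gate (25% and 37.7%). In the Mk gate the gap to all genes nearly closed in some smaller sets of cells. The factor median was 0.19 against 0.18 in G1 cells (5 of cKO) and 0.23 against 0.17 in cells of 4000 to 8000 UMIs (9 of cKO). The gap stayed wider with at least 3 markers (0.28 against 0.11, 6 cKO cells). It was also wider with cells thinned to 1000 UMIs (0.24 against -0.09, 27 cKO cells). With the cKO cells weighted to the WT mix of gates, the median over all cells was 0.24 against -0.11 for all genes, with 20 factors higher and 1 lower (all genes 15.8% and 31.9%). In the cells that met no gate, most of the cKO library, the factor median was 0.28. Over the 4 gates, 24 factors were above 0 in each and 12 had an interval above 0 in each, where 18.4% and 3.95% of 8263 genes at 5 CPM or more in every gate did so. In the other direction 3 factors were below 0 in each gate, 1 with its interval below 0 in each (28.2% and 4.34% of these genes).

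**Figure D3:**
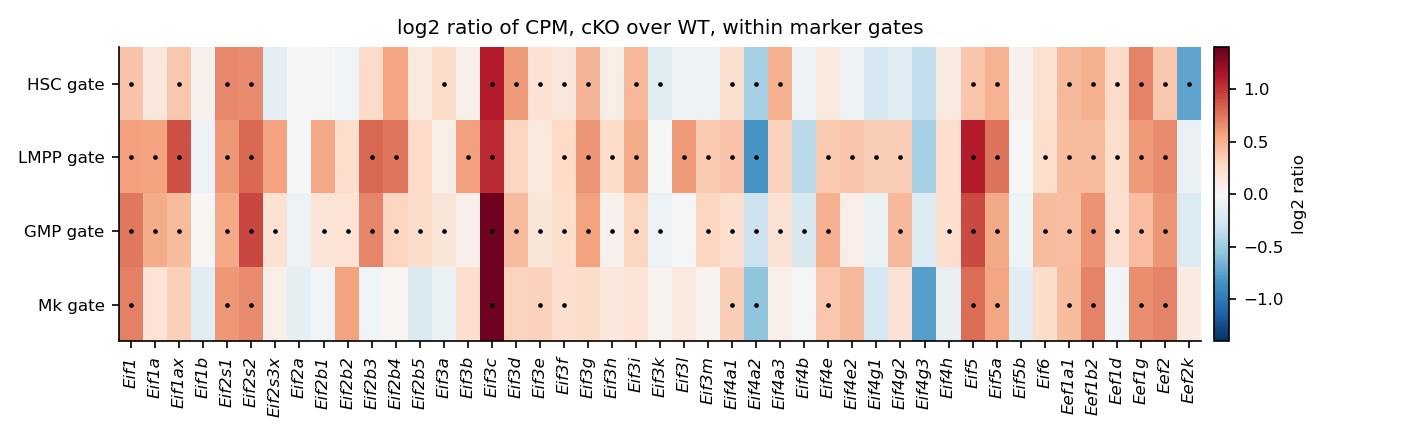
Log2 ratio of CPM, cKO over WT, of each factor (columns, by complex) in each marker gate (rows), coloured from blue (lower in cKO) to red (higher). Dots mark ratios whose 95% counting interval excludes 0. The column of Eif3c is red in all 4 gates (1.05 to 1.37) and that of Eif4a2 blue in all 4 (-0.82 to -0.30).

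The factors past the limit in all 4 gates were Eif1, Eif1ax, Eif2s1, Eif2s2, Eif3c, Eif5, Eif5a, Eef1a1, Eef1b2, Eef1g and Eef2, 11 in all, and 0 were lower in all 4. Of the 8263 genes, 5.43% were higher and 10.6% lower in all 4. The interval of Eif1ax in the Mk gate included 0 (-0.01 to 0.67). Over all cells of the shared depth band, Eif1ax, Eif2s1, Eif5, Eif5a and Eef1g were within the limits. Eif3c was at 245 and 526 CPM in the HSC gate (log2 ratio 1.10, 0.89 to 1.31), at 234 and 484 in the LMPP gate (1.05), at 258 and 660 in the GMP gate (1.36) and at 223 and 576 in the Mk gate (1.37). Its WT levels were close to one another in the 4 gates and each cKO level was above all of them. Eef1a1 had the most even ratio, at 0.46, 0.45, 0.44 and 0.45 in the same order, from 2134 and 2928 CPM in the HSC gate to 2185 and 2979 CPM in the Mk gate. Eif2s2 was at 0.66, 0.80, 0.94 and 0.66, and Eif2s1 at 0.68, 0.60, 0.53 and 0.61. The eIF2 median was therefore between 0.53 and 0.66 in every gate, and that of the elongation genes between 0.42 and 0.55. The remaining eIF2 gene, Eif2s3x, was at -0.13, 0.56, 0.20 and 0.08 in the same order. Its interval lay above 0 in the GMP gate only (0.01 to 0.39).

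Other factors had unlike ratios in the gates. Eif5 was at 266 and 350 CPM in the HSC gate (0.39, 0.19 to 0.60) but at 210 and 453 CPM in the LMPP gate (1.10, 0.91 to 1.30), and these intervals did not overlap. Eif1 was likewise lowest in the HSC gate, at 1599 and 2104 CPM (0.40, 0.31 to 0.48), against 1318 and 2207 CPM in the GMP gate (0.74, 0.72 to 0.77). The cap-binding Eif4e was at 133 and 146 CPM in the HSC gate (0.13, -0.15 to 0.44) and at 128 and 180 CPM in the GMP gate (0.49, 0.41 to 0.58). The median of the eIF4 group was -0.08 in the HSC gate and 0.33 in the LMPP gate, and the median of eIF2B was 0.13 and 0.54, although the intervals of its subunits were wide. Whether a ratio differs between gates could not be tested over samples.

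Few factors were below 0 throughout. Eif4a2 was below 0 with its whole interval in all 4 gates, at 189 and 138 CPM in the HSC gate (-0.46, -0.70 to -0.20) and at 152 and 85.7 CPM in the LMPP gate (-0.82, -1.14 to -0.51). In the shared depth band, where gates and phases also differed between the libraries, its ratio was instead 0.27. Between cells above and below the median UMI count, Eif4a2 was at -0.85 in WT and -0.34 in cKO. The part of depth in its ratio was not tested. Eif4b and Eif4g3 were below 0 in the 4 gates as well, but each interval included 0 except that of Eif4b in the GMP gate (-0.36 to -0.09). Eef2k was at 40.5 and 24.6 CPM in the HSC gate, from 33 and 180 UMIs (-0.74, -1.26 to -0.14), and its intervals in the other 3 gates reached 0 or above.

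Within a library, the HSC gate was compared with each of the other gates. In WT the median factor was at a log2 ratio of -0.02 (HSC over GMP), with 23 of 45 below 0 and 0.17 for all genes, and in cKO it was at -0.20, with 34 below 0 and 0.09 for all genes. Against the LMPP gate it was at 0.05 in WT (19 below 0, 0.13 for all genes) and at -0.11 in cKO (32 below 0, 0.05 for all genes). Against the Mk gate it was at -0.11 in WT (28 below 0, 0.09 for all genes) and at -0.09 in cKO (30 below 0, -0.01 for all genes). The factor median was thus lower in cKO than in WT against the GMP and LMPP gates and about equal against the Mk gate. The median of all genes was lower in cKO than in WT against each of these gates. Against the GMP gate, Eif4a1 and Eif4a2 pointed in opposite directions in both libraries: Eif4a1 was at -0.54 (-0.67 to -0.42) in WT and -0.55 (-0.59 to -0.50) in cKO, while Eif4a2 was at 0.79 (0.54 to 1.02) and 0.63 (0.50 to 0.76). Eif5 was level between these gates in WT (0.08) and at -0.46 in cKO, and Eif4g2 at 0.10 and -0.52.

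The share of a cell's UMIs that came from the 45 factors gave the same picture cell by cell. Over all kept cells the median was 1.47% in WT (quartiles 1.31 to 1.63) and 1.94% in cKO (1.74 to 2.13), with a standard deviation between cells of 0.26 and 0.29 percentage points. In the HSC gate it was 1.41% and 1.80%, in the LMPP gate 1.44% and 1.97%, in the GMP gate 1.5004% and 2.05%, and in the Mk gate 1.51% and 1.98%. The upper quartile of WT lay below the lower quartile of cKO in each of these groups. Cells are not replicates of a genotype, so the spread describes cells of 2 libraries.

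**Figure D4:**
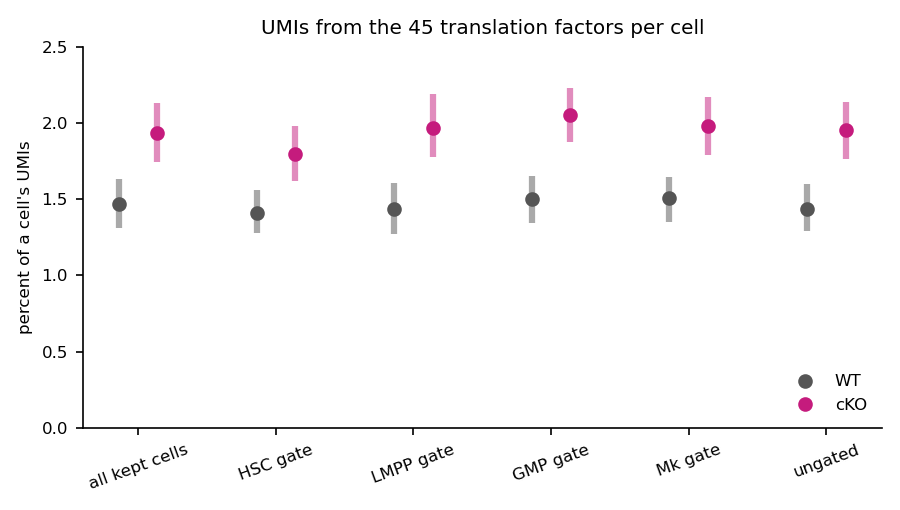
Percent of a cell's UMIs that came from the 45 factors, for all kept cells, the 4 marker gates and ungated cells. Points are medians over cells and bars run from the lower to the upper quartile, WT in grey and cKO in pink. Medians were 1.41% to 1.51% in WT and 1.80% to 2.05% in cKO.

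Because the libraries differed in depth, each was split at its own median UMI count. The cells above the median, set against those below, had a median factor ratio of 0.07 in WT and 0.14 in cKO, against -0.17 and -0.09 for all genes, with members on both sides of 0 in each library. For Eif3c the ratio of upper to lower cells was 0.13 in WT and 0.57 in cKO, for Eif5 -0.00 and 0.68, and for Eif1 -0.18 and 0.30. Eif2s1 was higher in the cells with more UMIs in both (0.47 and 0.33) and Eif4a2 lower (-0.85 and -0.34), whereas Eef1a1 (-0.08 and -0.06) and Eef2 (-0.09 and -0.14) varied little.

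**Figure D5:**
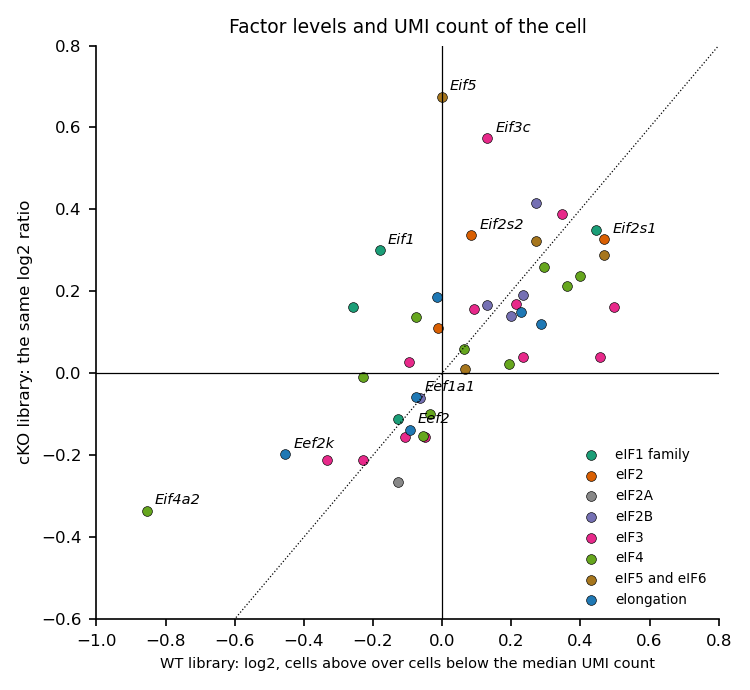
Log2 ratio of each factor between cells above and below the median UMI count of their library, in WT (horizontal) and cKO (vertical), coloured by complex. The dotted line marks equal ratios. Eif5 (-0.00 in WT, 0.68 in cKO) and Eif3c (0.13 and 0.57) lie far above it, Eef1a1 and Eef2 near the origin and Eif4a2 at the far left (-0.85 and -0.34).

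The shared depth band of 4000 to 8000 UMIs held 3104 WT and 2213 cKO cells. It narrowed the difference in depth without removing it, since the median cell in it held 5357.5 UMIs in WT and 6510 in cKO. It also took unlike parts of the libraries, as 48.0% of WT but 3.78% of cKO cells lay below it. The factor median in the band was 0.17 and that of all genes 0.02. Here 10 factors were higher and 0 lower, beside 22% and 20.7% of all genes, so the share of higher factors was near the background. The 10 were Eif1, Eif1a, Eif2s2, Eif3c, Eif3e, Eif3f, Eif3i, Eef1a1, Eef1b2 and Eef2, of which 8 were among the 19 found over all cells. The other 11 of the 19 fell within the limits. Of these, Eif2b4, Eif2s1, Eif3d, Eif3g, Eif5, Eif5a and Eef1g had an interval above 0, and for the other 4 (Eif1ax, Eif2b3, Eif4e and Eif6) it included 0. All 19 were above 0 in the band and 15 had an interval above 0. Of the 1524 genes that were higher over all cells, 67.9% were past the limit in the band too, a larger share than 8 of 19, while 94.4% were above 0 and 82.2% had an interval above 0. These cells differed in other ways as well: 10.8% of the WT and 47.7% of the cKO cells were called G1, and 54.4% and 3.34% were in the GMP gate. Restricted to 2640 WT and 2009 cKO cells called G1, at any depth, 17 factors were higher and 1 lower, beside 17.7% and 35.6% of all genes, with a factor median of 0.24 against -0.12 for all genes. The part of depth in the ratios cannot be told apart from genotype with these 2 libraries.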

How the data were processed

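Single-cell RNA sequencing of sorted LSK cells was analysed in 1 Trmt6 WT and 1 Trmt6 cKO library, with genotypes as labelled. The deposited values are raw counts of UMIs by gene and barcode. Per the submitters' processing notes, the authors ran Cell Ranger 6.0.0 on the mouse genome mm10 (GRCm38). The labels name the v2 and the study's methods the v3 reagent kit. The 45 members, the other lists and the tests were chosen with earlier results of these data known.

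Cells with over 200 genes, under 4000 (WT) or 4500 (cKO) genes, under 10% (WT) or 5% (cKO) mitochondrial and under 5% hemoglobin UMIs were kept. Doublets were scored against simulated pairs (50 neighbours, 20 principal components, 1500 variable genes) and removed at 0.8% per 1000 barcodes, leaving 91.9% and 91.6% of barcodes. UMIs were summed per library or gate. Log2 ratios used 0.5 prior counts with exact conditional binomial intervals (scipy 1.17.1), tested on simulated data. Phases used the Seurat 5.3.0 gene lists in scanpy 1.11.5 on cells thinned to 2000 UMIs. Gene positions came from GENCODE M21 by gene ID. Alternatives were TMM (edgeR 4.0.16), median-of-ratios size factors, a total without mitochondrial and ribosomal protein genes, per-cell scaling, other cell filters, cells of 4000 to 8000 UMIs, G1 cells, the WT mix of gates, other folds and other gates. Cells between the quartiles of UMI count of each library, gates that ignore other lists and gates limited to 4000 to 8000 UMIs were added after seeing the data. Named with values were members past the fold, the extremes of each complex and core subunits. 1 megakaryocyte marker symbol was not found. Promoter windows on chromosome 18 were left out.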

Additional observations from a re-analysis of the deposited data

How the results depend on the processing

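The main values over all cells were a factor median of 0.20, 19 higher, 1 lower, and medians of 0.46 (eIF2), 0.22 (eIF2B), 0.11 (eIF3), 0.11 (eIF4) and 0.42 (elongation). In the same order, TMM gave 0.30 with 20 higher and 0 lower, and 0.56, 0.32, 0.21, 0.21 and 0.52. Median-of-ratios size factors gave 0.30, 22 higher, 0 lower, 0.56, 0.32, 0.22, 0.21 and 0.53, with 0.35 in the GMP gate. Leaving mitochondrial and ribosomal protein genes out of the total gave 0.30, 20, 0, 0.56, 0.32, 0.21, 0.20 and 0.52. All genes gave 22.4% to 23.2% higher and 21.8% to 22.3% lower under these 3 scalings. In the shared depth band 10 were higher and 0 lower, with 0.17, 0.13, 0.18 and 0.36 for eIF2, eIF2B, eIF3 and elongation. In the cells between the quartiles of UMI count of each library 2 were lower (all genes 32.2%), with 0.62 (eIF2), 0.37 (eIF2B), 0.17 (eIF4) and 0.40 (elongation). In G1 cells eIF2 was at 0.67, eIF4 at 0.16, elongation at 0.53 and the GMP gate at 0.39. With cKO cells weighted to the WT mix eIF2 was at 0.57, eIF3 at 0.17, eIF4 at 0.18 and elongation at 0.45, and with each cell scaled first eIF2 was at 0.53 and eIF4 at 0.14. A fold of 1.5 left 5 higher and 0 lower. The 3 scalings move every gene by the same amount, and with them the median of all genes from -0.07 to 0.03. The cause of the other shifts was not tested.

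Signs turned for the members named here. Eif3k was at 0.012 under TMM, 0.017 under size factors, 0.0085 with the reduced total and 0.095 in that band. Eif3l was at 0.029, 0.034 and 0.026 under those scalings, 0.047 with cells scaled first, 0.050 in the cells between the quartiles, 0.14 in G1 cells and 0.017 in the WT mix. Eif2a was at 0.00024 under size factors and 0.26 in that band, where Eif4a2 was at 0.27, Eif3a at -0.082, Eif4a1 at -0.031 and Eif4a3 at -0.18. Eif3b and Eif4g1, whose intervals over all cells included 0, ranged from -0.15 to 0.17 and from -0.05 to 0.17. Over 11 settings 33 members were above 0 throughout and 3 (Eif4b, Eif4g3 and Eef2k) below 0 throughout, beside 26% and 33.2% of all genes, but the settings share most of their cells. In the HSC gate the median stayed between 0.11 and 0.32. No paired analysis was possible because each genotype has 1 library. Small gates limit these values: in that band the HSC gate held 43 WT cells and the Mk gate 9 cKO cells, and the Mk gate held 5 cKO cells in G1.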

Other observations

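Among 9 translation factors of mitochondria, which were no members, 1 was higher and 1 lower in cKO past the log2 limit of 0.32, no larger a share than the 16.7% and 28.4% of all genes. Tsfm, the exchange factor of the mitochondrial elongation factor, was at 61.7 CPM in WT against 87.8 CPM in cKO (log2 ratio 0.51, 0.45 to 0.58). Tufm, that elongation factor, was at 36.5 and 45.2 CPM (0.31), and Mtif3, an initiation factor, at 16.3 and 12.5 CPM (-0.38, -0.52 to -0.24). The median of the 9 was 0.20, as for the 45 cytosolic factors, with counts that were lower.

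Trmt61a, which encodes the catalytic partner of Trmt6, stood at 16.1 CPM in WT against 32.4 CPM in cKO (log2 ratio 1.01, 0.89 to 1.13). The Y-linked genes Ddx3y and Uty were at 38.2 and 30.9 CPM and at 10.8 and 7.26 CPM, and the X-linked Kdm6a at 12.0 and 7.53 CPM, beside the paralogue pair of the eIF2 gamma subunit.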
